A study of Mus musculus with 4 samples.

Results

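The linker histone H1 genes were followed in 4 sequencing libraries of mouse pachytene spermatocytes. The members were chosen by gene symbol: 5 replication-dependent H1 genes (H1f1 to H1f5), 2 replacement H1 genes (H1f0 and H1f10) and 2 testis H1 genes (H1f6 and H1f7). All 9 symbols had an entry among the 50763 genes of the deposited table and all 9 had at least 1 count. The filter on low counts was passed by 7 of them, and H1f3 and H1f4 stayed below it. The samples were polyadenylated RNA of testis cells that the labels call pachytene spermatocytes and meiotic cells, from WT mice (2 libraries) and Hsf5 knockdown mice (2 libraries). Hsf5 encodes a heat shock factor made in the testis. How the knockdown was made, the strain, the age, the method of cell purification and any pooling of animals are not stated in the sources at hand. The labels call the replicates biological without naming animals, so each p-value reflects only how far these 4 libraries spread.

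Linker histones sit where DNA enters and leaves the nucleosome and help to compact chromatin. The replication-dependent genes lie in the large histone cluster and are made in S phase, and their mRNAs normally end in a short stem-loop in place of a poly(A) tail. Replacement H1 genes lie elsewhere in the genome, give polyadenylated mRNA and are made outside S phase as well, H1f0 above all in cells that are ceasing to divide. In the male germ line the somatic forms are partly exchanged for H1t, the product of H1f6, in pachytene spermatocytes, and for H1T2, the product of H1f7, and HILS1, the product of H1f9, in spermatids. H1.1, the product of H1f1, is known as a form of spermatogonia.

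The libraries were made from poly(A)-selected RNA, so the 3′ end of each transcript bears on whether it can be seen, and the stem-loops are shown for that reason. In the GENCODE M21 transcript models (build GRCm38) the consensus stem-loop was found in H1f2, H1f3 and H1f4. A variant was found in H1f6. The model of H1f1 ends within the consensus stem-loop, after 15 of its 16 bases. None was found in the models of H1f5, whose model stops at the stop codon, or of H1f0, H1f10 and H1f7. All of these genes are intronless in the models, and the stem-loops lie in the 3′ UTR, 24 to 40 bases after the stop codon. In the lines that follow the sequence is 5′ to 3′ on the gene's strand, and the 4 loop bases are in capitals.
H1f1: ggctctTTTCagagc
H1f2: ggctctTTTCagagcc
H1f3: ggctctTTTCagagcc
H1f4: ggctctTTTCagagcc
H1f6: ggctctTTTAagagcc
The H1f1 stem-loop lies at chr13:23764392-23764406 on the plus strand and that of H1f2 at chr13:23739512-23739527 on the plus strand. That of H1f6 lies at chr13:23696525-23696540 on the plus strand and differs from that of H1f2 by C10A, with positions counted from 1 at the 5′ end. The consensus, searched in the form of these sequences with either C or T, and A or G, at a paired stem position, occurred in 36 of 55341 annotated genes (0.0651%) and the wider pattern that also allows the H1f6 form in 95 (0.172%), on the sense strand. The models of H1f2, H1f3, H1f4 and H1f6 go on past the stem-loop, by 840, 4884, 1153 and 185 bases. Those of H1f2 and H1f6 hold the polyadenylation signal AATAAA 26 and 27 bases before the end of the model. The signal was also found in the last 50 bases of the H1f0 and H1f10 models and not in those of the other 5 members. Of 21877 protein-coding genes 59.2% carry it there in their longest transcript.

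The promoters of the 4 tested H1 genes of the chromosome 13 cluster are shown side by side. H1f3 and H1f4 of this cluster were not tested and are left out. These are 130 bases that end just before the annotated start, from the RefSeq table of build GRCm38.p6. The counts were made on build mm39, so these positions belong to the older build. The capitals mark the letters AAACACA, known as the H1 box, and CCAAT, known as the CCAAT box, or its reverse complement.
H1f1: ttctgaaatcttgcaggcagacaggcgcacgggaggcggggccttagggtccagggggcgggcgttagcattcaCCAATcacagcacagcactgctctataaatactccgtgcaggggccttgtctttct
H1f2: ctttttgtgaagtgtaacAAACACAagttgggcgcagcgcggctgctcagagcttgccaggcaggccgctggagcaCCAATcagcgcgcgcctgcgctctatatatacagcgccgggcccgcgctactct
H1f5: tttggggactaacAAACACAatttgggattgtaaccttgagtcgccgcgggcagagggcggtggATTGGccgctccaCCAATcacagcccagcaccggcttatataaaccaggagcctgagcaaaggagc
H1f6: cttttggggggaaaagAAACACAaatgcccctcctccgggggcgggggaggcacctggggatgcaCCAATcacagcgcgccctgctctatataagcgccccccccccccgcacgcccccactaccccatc
They lie at chr13:23763538-23763667 (H1f1, plus strand), chr13:23738677-23738806 (H1f2, plus strand), chr13:21780626-21780755 (H1f5, minus strand) and chr13:23695681-23695810 (H1f6, plus strand). In the 250 bases before the start, with both strands searched, AAACACA was found in H1f2, H1f3, H1f4, H1f5 and H1f6, against 6.25% of 32851 promoter windows of the same length. CCAAT was found in these 5 and in H1f1, against 33.8% of windows. In these 5 genes AAACACA began 112 to 122 bases before the start, and in the 6 genes a CCAAT began 51 to 65 bases before it. The 2 motifs did not overlap. The inverted repeats of the heat shock element, GAANNTTC and TTCNNGAA, were in none of the 9 windows, against 6.69% and 7.17% of all windows. These are matches of letters and say nothing about which factor binds.

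Depth was 33287428 to 42479164 counts per library. Levels are given as CPM, the counts relative to library size after TMM scaling, in which 1 count is 0.0212 to 0.0347 CPM depending on the library. Across the 23594 genes tested, 60.9% were called, 27.4% higher in the knockdown and 33.5% lower (edgeR quasi-likelihood test, adjusted p below 0.05), and the median log2 fold change was -0.12. That median was 0.31 when libraries were scaled by their totals only, so changes near 0 depend on the scaling. Hsf5 itself stood at 586 and 449 CPM in WT and at 287 and 238 CPM in the knockdown, a log2 fold change of -0.98 (SE 0.31; edgeR, adjusted p = 0.0217). It did not pass with library totals only (-0.55; edgeR, adjusted p = 0.116), when WT replicate 1 was left out (-0.79; adjusted p = 0.219) or when WT replicate 2 was (-1.13; adjusted p = 0.0725). Transcript of Hsf5 was present in both knockdown libraries. The 12 markers of pachytene cells were all detected in every library, summing to 11110 and 10250 CPM in WT and 3029 and 2498 CPM in the knockdown, where 8 were called lower and 2, Sycp1 and Hormad1, higher. Neither of these 2 was called higher without WT replicate 2, and 1 was without knockdown replicate 1.

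In the comparison of knockdown with WT, 4 of the 7 tested H1 genes rose (H1f0, H1f1, H1f2 and H1f5), 1 fell (H1f7) and 2 did not pass (H1f10 and H1f6), where 60.9% of all tested genes passed, 27.4% as higher and 33.5% as lower. H1f1 and H1f5 passed the low-count filter only through the knockdown libraries, so they could enter the test only as higher. H1f7 passed it only through the WT libraries, so it could enter only as lower. The counts of 4 and 1 are therefore no evidence about the family. In bulk RNA, fewer cells of a type and less RNA per cell cannot be told apart, for these genes as for all others. The groups did not overlap for 5 of the 7, with 4 above WT and 1 below, where 39% of all tested genes lay above WT in both knockdown libraries and 43.7% below. The plot of levels by library shows each member on one scale.

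**Figure D1:**
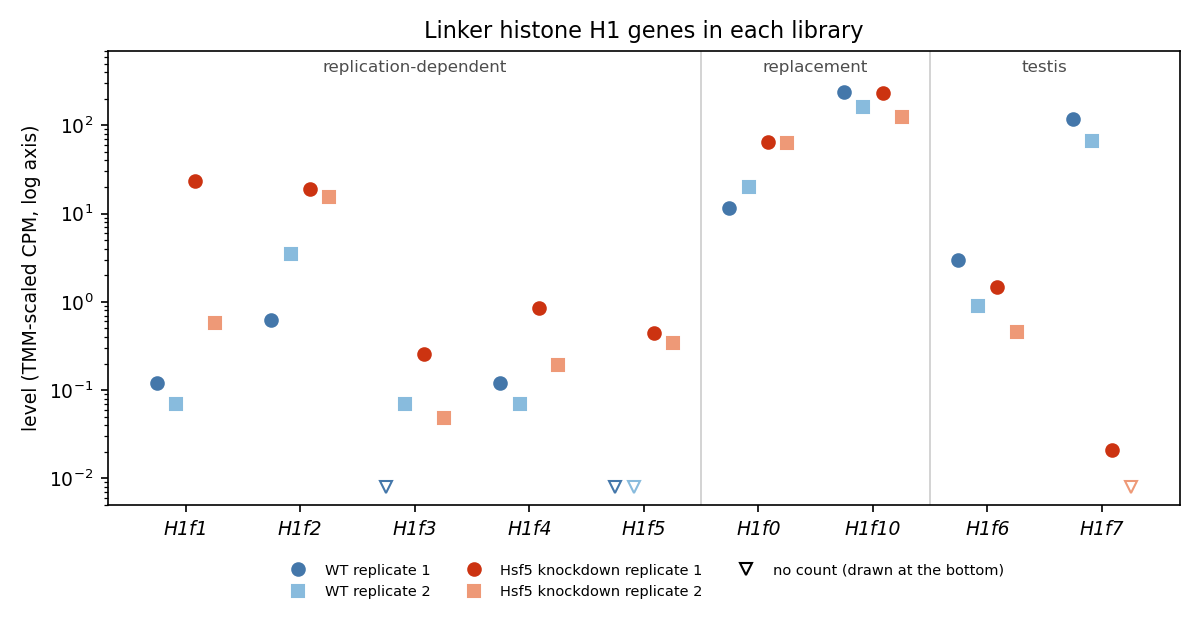
Level of each H1 gene (TMM-scaled CPM, log axis) in the 4 libraries, with circles for replicate 1, squares for replicate 2 and open triangles at the bottom for libraries without a count. H1f1 stands at 23.4 CPM in knockdown replicate 1 and at 0.581 CPM in knockdown replicate 2, H1f7 is present only in WT apart from 1 count, and H1f10 overlaps between the groups.

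Among the replication-dependent genes, H1f1 was almost absent from WT, at 0.119 and 0.0694 CPM (4 and 2 counts). In the knockdown it stood at 23.4 CPM (1107 counts) in replicate 1 and at 0.581 CPM (24 counts) in replicate 2. Both knockdown libraries lay above both WT libraries, but they differed from each other 40.3-fold. The fitted log2 fold change was 6.92 with an SE of 1.58 (edgeR, adjusted p = 0.00439). Knockdown replicate 1 decides this call: the fit without it gave 2.64 on the log2 scale and missed the threshold (edgeR, adjusted p = 0.158). Over 6 other settings and the 4 fits without 1 library, the adjusted p of H1f1 exceeded 0.05 in that fit only.

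The difference between the knockdown libraries set H1f1 apart from nearly all genes. Its log2 ratio of replicate 1 to replicate 2 was 4.47, with 0.5 CPM added to both levels, and it ranked 1 of the 23594 tested genes. The second, Cxcl2, had a log2 ratio of 3.27. Only 31 genes (0.131%) had a ratio of 4-fold or more in this direction, and 44 (0.186%) in the other. The other tested H1 genes had log2 ratios between 0.05 (H1f0) and 1.03 (H1f6), and that of H1f6 was reached by 2.54% of genes. The scatter of the knockdown libraries shows H1f1 away from the cloud and the other 6 within it.

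**Figure D2:**
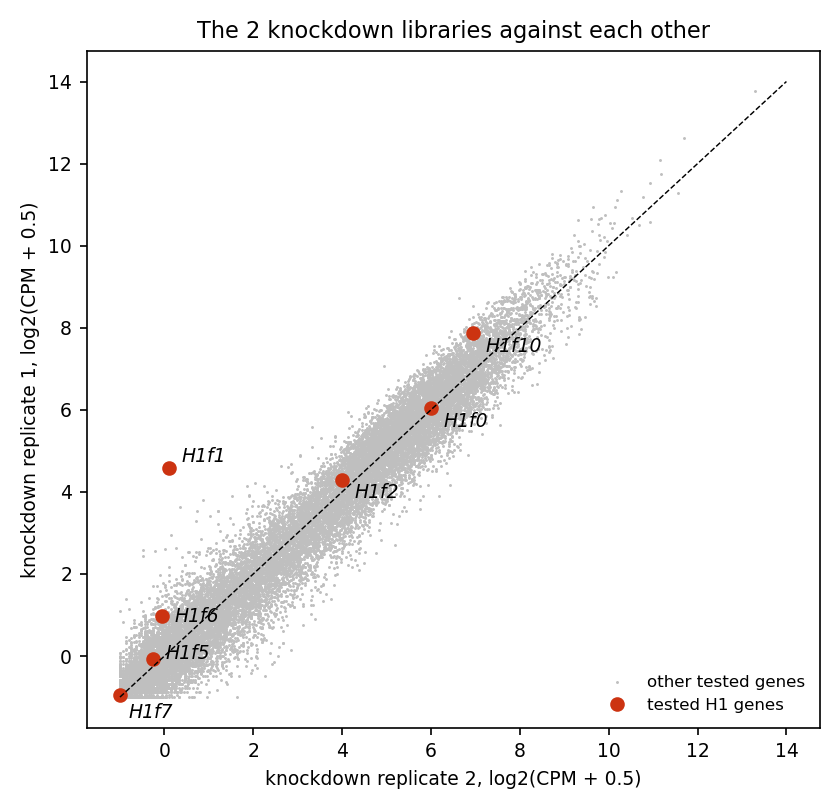
Level of each tested gene in knockdown replicate 1 (vertical axis) against knockdown replicate 2 (horizontal axis), both as log2(CPM + 0.5), with tested H1 genes in red, all others in grey and the line of equality dashed. H1f1 lies 4.47 log2 units above the line, and no other tested gene lies as far above it.

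The neighbours of H1f1 in the table and the testis core histone genes were looked at next, and were chosen after their values were seen. Trim38, the gene listed just before H1f1, had 0.169 and 0.121 CPM in the knockdown libraries, against 1.67 and 1.15 CPM in WT. H3c1, the gene listed just after it, had 1.35 and 0.339 CPM in the knockdown against 1.61 and 1.35 CPM in WT. Neither neighbour lay above both WT libraries in knockdown replicate 1. The testis core histone genes differed between the knockdown libraries in the same direction as H1f1. H2ac1 had 4.91 and 0.218 CPM there (rank 5 of all tested genes by the log2 ratio), H2bc1 11 and 1.82 CPM (rank 15) and H3f4 13.5 and 1.33 CPM (rank 4). Against WT none of the 3 passed the test (edgeR, adjusted p = 0.907 for H2ac1, 0.0837 for H2bc1 and 0.163 for H3f4), and in WT they were present, at 1.31 to 3.07 CPM.

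Transcripts that are made without a poly(A) tail were also compared between replicates. The median log2 ratio of knockdown replicate 1 to 2 over all tested genes was 0. For 43 of the 59 replication-dependent core histone genes with a count in the knockdown, replicate 1 was above replicate 2, and their summed level was 55.5 CPM against 41.6 CPM. In WT the sums were 137 and 128 CPM, with replicate 1 higher for 18 of 39. A list of 16 small noncoding RNAs without a tail, added after the data were seen, summed to 18.2 and 6.66 CPM in knockdown replicates 1 and 2 and to 19 and 10.3 CPM in WT replicates 1 and 2. Rn7sk, which regulates transcription elongation, had 8.84 and 1.67 CPM in WT and 11.1 and 1.16 CPM in the knockdown. Only 7 of the 16 were higher in knockdown replicate 1 than in replicate 2. The part of these transcripts in the H1f1 value was not tested.

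H1f2, a somatic H1 gene, had 0.625 and 3.51 CPM in WT (21 and 101 counts) and 19.2 and 15.4 CPM in the knockdown (908 and 634 counts). The knockdown libraries were close to each other, 1.25-fold apart, and both lay above WT, whereas the WT libraries differed 5.61-fold. H1f2 rose by 3.07 on the log2 scale (SE 0.72; edgeR, adjusted p = 0.00507). The size of the rise rests on the WT library used: it was 2.28 without WT replicate 1 and 4.81 without WT replicate 2, and it passed in both fits (edgeR, adjusted p = 0.00102 and 1.4e-09). Between the WT libraries H1f2 had a log2 ratio of replicate 1 to replicate 2 of -1.83, and 1.14% of all tested genes had a ratio as low or lower.

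The other 3 replication-dependent genes were near the limit of detection. H1f5 had no count in either WT library and 0.444 and 0.339 CPM in the knockdown (21 and 14 counts). Against a floor of 3 counts over the WT group that is at least 8.22-fold higher, and the test called it higher (edgeR, adjusted p = 0.00435), although not in the fit that left out WT replicate 1 (edgeR, adjusted p = 0.0632). H1f5 stayed below the filter without knockdown replicate 1. H1f4 had 0.119 and 0.0694 CPM in WT and 0.846 and 0.194 CPM in the knockdown (40 and 8 counts). Its pooled ratio of knockdown to WT was 5.64, with an exact 95% interval from 2.41 to 16.1. H1f3 had 0 and 2 counts in WT and 12 and 2 in the knockdown, a pooled ratio of 4.93 with an interval from 1.13 to 44.7. These intervals cover counting error only. The levels of H1f4 did not overlap between the groups, whereas those of H1f3 did. Knockdown replicate 1 was the highest library for H1f1, H1f2, H1f3, H1f4 and H1f5 alike.

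Reads of these genes can be hard to assign, since their transcripts share stretches. The longest identical stretch was 149 bases between H1f2 and H1f3 and 146 bases between H1f2 and H1f4. H1f5 shared at most 47 bases with another member and H1f1 at most 32. H1f6, H1f0, H1f10 and H1f7 shared at most 21. What was done with reads matching several places is not stated in the sources at hand, so the counts of H1f2, H1f3 and H1f4 are less certain than those of the others.

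Of the replacement genes, H1f0 rose and H1f10 did not pass. H1f0, the form that accumulates in cells that stop dividing, had 11.7 and 20.2 CPM in WT and 65.5 and 63.4 CPM in the knockdown. The knockdown libraries were 1.03-fold apart and both above WT. H1f0 rose by 2.01 on the log2 scale (SE 0.37; edgeR, adjusted p = 0.00141), and it passed in every alternative run, with values from 1.66 to 2.49. H1f10, a divergent form found in most tissues, had 239 and 160 CPM in WT and 233 and 123 CPM in the knockdown. In both groups replicate 1 was the higher library, by 1.49-fold in WT and 1.89-fold in the knockdown, and the groups overlapped. Its log2 fold change was -0.16 (SE 0.37; edgeR, adjusted p = 0.73), and its sign turned with library totals only (0.26), without WT replicate 1 (0.14) and without knockdown replicate 2 (0.24).

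Of the testis genes, H1f7 fell and H1f6 did not pass. H1f7, needed for the condensation of sperm chromatin, had 118 and 65.7 CPM in WT (3972 and 1892 counts). The knockdown libraries held 1 count and 0 counts. The ratio of WT to knockdown over the groups was 8325, with an exact 95% interval from 1494 to 328900 for counting error, and the gene passed the test (edgeR, adjusted p = 5.34e-06). It had entered the test only through its WT counts. H1f6, the pachytene form, was low in every library, at 3.01 and 0.903 CPM in WT (101 and 26 counts) and 1.46 and 0.46 CPM in the knockdown (69 and 19 counts). The groups overlapped, and in both the first replicate was the higher, by 3.33-fold and 3.17-fold. The log2 fold change of H1f6 was -1.02 (SE 0.81; edgeR, adjusted p = 0.301). Leaving out WT replicate 1 gave 0.08 and leaving out knockdown replicate 1 gave -1.995, so a single library sets the size and even the sign. Rn7sk, given above, differed between replicates in the same direction in both groups, and its part in the H1f6 values was not tested.

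The other germ line H1 genes, H1f8 and H1f9, are not members and are given for comparison. H1f9 passed the low-count filter only through the WT libraries and H1f8 only through the knockdown libraries. H1f9, the spermatid form next to H1f7 in its timing, had 147 and 65.6 CPM in WT. In the knockdown it had no count in replicate 1 and 13 counts (0.315 CPM) in replicate 2, and it fell by 9.43 on the log2 scale (SE 0.98; edgeR, adjusted p = 7.36e-05). H1f8, the oocyte form, stood at 0.179 and 0.0694 CPM in WT and at 1.1 and 0.605 CPM in the knockdown. Its rise of 2.73 (SE 0.87; edgeR, adjusted p = 0.0217) was lost when WT replicate 2 (adjusted p = 0.142) or knockdown replicate 1 (adjusted p = 0.199) was left out.

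**Figure D3:**
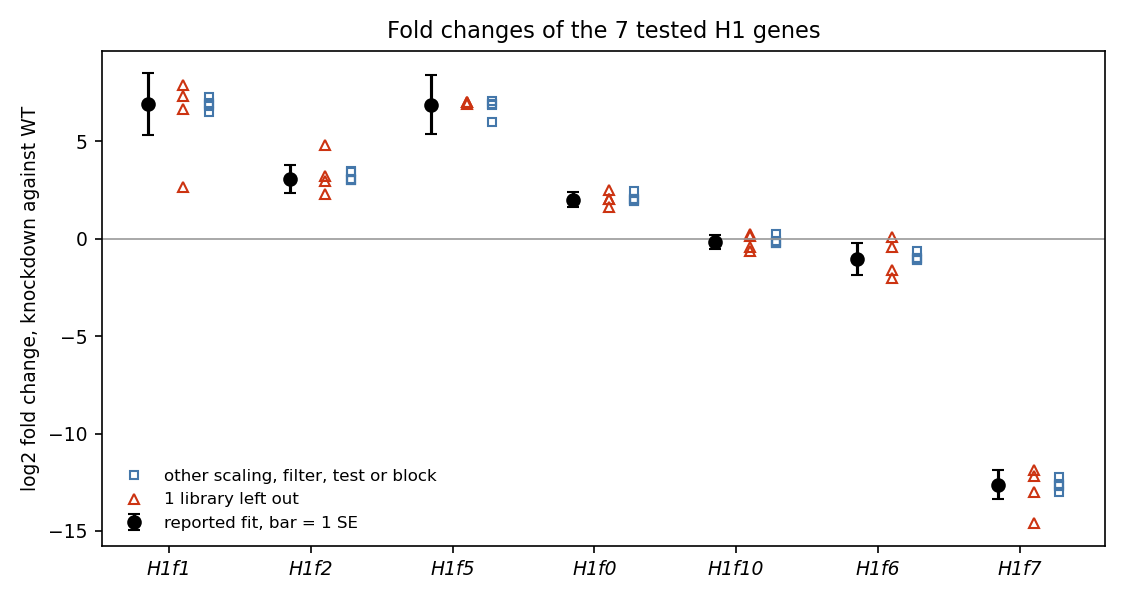
Log2 fold change (knockdown against WT) of the 7 tested H1 genes, with black points and bars for the reported fit ± 1 SE, red triangles for fits without 1 library and blue squares for other scalings, filters, tests or the replicate block. For H1f1 one triangle, the fit without knockdown replicate 1, falls to 2.64, and the values of H1f10 and H1f6 lie on both sides of 0. The values of H1f5 and H1f7 depend on the prior count of the fit, since a group has no count or 1 count.

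Levels of different genes were compared per length, as CPM per kilobase of the longest GENCODE M21 transcript. On this scale H1f10 was the highest H1 gene in each of the 4 libraries, at 196 and 131 in WT and 192 and 101 in the knockdown. In WT H1f7 followed, at 90.4 and 50.2, and then H1f0, at 5.69 and 9.83. H1f6 (3.3 and 0.99) and H1f2 (0.401 and 2.25) came next in WT and changed places between the replicates, so their order cannot be told. In knockdown replicate 1 H1f0 (31.9) and H1f1 (31.6) were nearly level and H1f2 (12.3) followed. That near equality depends on the length used: in the same library H1f0 held 18.8% and H1f1 6.13% of the H1 signal by coding length, and 19% and 6.8% by undivided counts. In knockdown replicate 2 H1f0 (30.8) was followed by H1f2 (9.84), with H1f1 at 0.784. H1f3, H1f4 and H1f5 stayed at or under 0.598 in every library. The RNA was poly(A)-selected, so transcripts that end in a stem-loop can be missed. This order therefore holds for polyadenylated RNA only.

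As shares of the summed H1 level, H1f10 held 66.8% ± 0.872 (SD, n = 2) in WT and 70.7% ± 0.358 in the knockdown. H1f7 held 28.2% ± 3.37 in WT and 0.00598% in the knockdown library that had its 1 count. H1f0 held 3.48% ± 2.21 in WT and 16.6% ± 6.81 in the knockdown. Together the testis genes held 31.6% and 26.3% of the H1 signal in WT and 0.598% and 0.35% in the knockdown. The replication-dependent genes together made up 0.21% and 1.22% in WT, and 16.6% and 7.77% in the knockdown. In knockdown replicate 1 H1f1 held the most of that (11.7%, or 6.13% by coding length), whereas in replicate 2 it was H1f2 (6.84%). The summed level of the 9 genes was 296 and 195 CPM per kilobase in WT and 270 and 144 in the knockdown, and overlapped between the groups. Shares carry no test, since 2 libraries against 2 cannot go below p = 0.333 in a two-sided exact permutation test. They also depend on the length used: by coding length H1f10 held 75.8% in WT and 65.5% in the knockdown, which turns the order of the groups, and H1f7 held 16.3% in WT. As the RNA was poly(A)-selected, the shares can miss transcripts that end in a stem-loop and are not shares of all H1 mRNA.

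**Figure D4:**
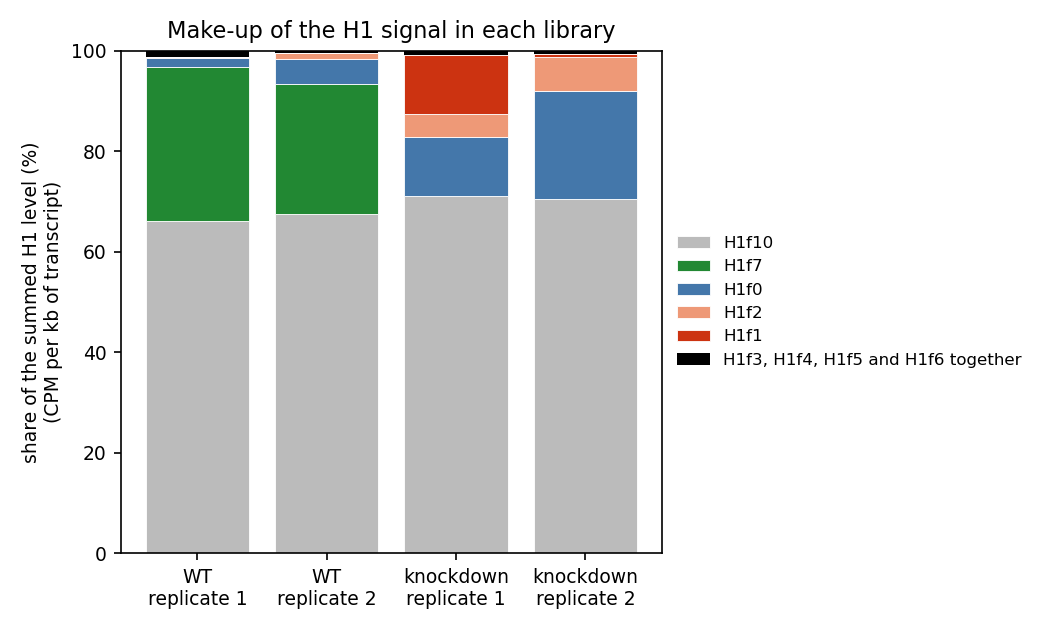
Share of each H1 gene in the summed H1 level of a library (%, from CPM per kilobase of transcript), 1 bar per library. H1f10 takes 66.2% to 71% of every bar, H1f7 is visible only in WT, and H1f1 takes 11.7% of knockdown replicate 1 and 0.545% of knockdown replicate 2. The shares are of poly(A)-selected RNA, in which transcripts without a tail can be missed.

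Genes of proteins that carry H1 or compete with it for chromatin were read from a list of 18, of which 11 rose, 1 fell and 6 did not pass. Of all tested genes 27.4% rose and 33.5% fell. With library totals only, 13 of the list rose. The list's median was 1.15 on the log2 scale, and that of all tested genes was -0.12. The list's median was 0.903 without knockdown replicate 1 and 1.56 without knockdown replicate 2. Hmgb3, a high mobility group protein, had 3.36 and 3.72 CPM in WT and 59.7 and 59.9 CPM in the knockdown (log2 fold change 4.08, SE 0.37; edgeR, adjusted p = 3.26e-05). Anp32e, a histone chaperone, rose by 3.68 (SE 0.37) on the log2 scale and Ptma, of prothymosin alpha, by 2.99 (SE 0.31). Nasp, a chaperone that binds H1 and H3-H4, was the only one to fall, from 2638 and 1786 CPM to 358 and 251 CPM (log2 fold change -2.86, SE 0.40; edgeR, adjusted p = 0.000332). The H1 carriers Nap1l1, Nap1l4, Set and Npm1, the import receptor Kpnb1 and Parp1, which competes with H1 for nucleosomes, did not pass, with log2 fold changes between -0.58 and 0.51.

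The genes that make and process histone mRNA were mostly not past the test. Of all tested genes 27.4% rose and 33.5% fell, and of this list 18.2% rose and 13.6% fell. Of 22 measured, 4 (Lsm11, Casp8ap2, Ncbp2 and Cpsf3) rose, 3 (Coil, Ncbp1 and Mblac1) fell and 15 did not pass, with a median of -0.16, and of 0.28 with library totals only, where 8 rose. The rises numbered 2 without WT replicate 1, without WT replicate 2 and without knockdown replicate 1. Coil, of the Cajal body protein coilin, had 291 and 275 CPM in WT and 39.1 and 26.5 CPM in the knockdown. Ncbp1, of the cap-binding complex, fell by 1.95 on the log2 scale (SE 0.31) and Lsm11, of the U7 particle that recognises histone mRNA, rose by 2.09 (SE 0.45). Slbp, which binds the stem-loop shown above, had 209 and 173 CPM in WT and 223 and 142 CPM in the knockdown and did not pass (log2 fold change -0.07; edgeR, adjusted p = 0.869). Npat, which activates the histone cluster in S phase, did not pass either (-0.14, SE 0.30).

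The replication-dependent core histone genes were called in both directions, at shares near those of all tested genes. Of 60 genes 24 were tested, of which 6 rose (25%), 8 fell (33.3%) and 10 did not pass. Of all tested genes 27.4% rose and 33.5% fell. Among the rises, H3c10, H2bc18, H3c3 and H2bc6 had 0 to 4 counts in each WT library. They passed the low-count filter only through the knockdown libraries, so they could enter the test only as higher. Among the falls, H2ac21 had 10 and 5 counts in the knockdown and could enter only as lower. The list's median depended on the filter, at 0.17 as filtered, 2.62 for the 59 genes without a filter and -1.91 for the 15 with a mean of at least 1 CPM. The count of rises was 14 without the filter, 2 with that minimum, 1 without knockdown replicate 1 and 14 without knockdown replicate 2. H2bc21, which fell, had 77.3 and 72.2 CPM in WT against 2.67 and 5.4 CPM in the knockdown. H2bc22 fell as well, with 13.5 and 8.58 CPM against 0.36 and 0.363 CPM. H2bc4, named after its values were seen, had 0.268 and 2.6 CPM in WT and 12.9 and 16.6 CPM in the knockdown (log2 fold change 3.37, SE 0.85; edgeR, adjusted p = 0.00708). As for H1f2, WT replicate 1 was the lowest library and both knockdown libraries lay above WT, but the order of the knockdown replicates was the reverse. Of the replacement core histone genes 3 of 8 rose (Cenpa, H2az2 and Macroh2a2), none fell and 5 did not pass. With library totals only 5 rose. Of 24 DNA replication and S phase genes 12 rose (50%), 2 fell (8.33%, Rrm1 and Cdc25a) and 10 did not pass, with a median of 0.92. No fall was called with library totals only, without WT replicate 1 or without WT replicate 2, and 1 was without knockdown replicate 1. Mcm4 and Mcm2, of the replicative helicase, both rose, Mcm4 by 3.76 (SE 0.36) and Mcm2 by 4.04 (SE 0.40) in log2 units.

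**Figure D5:**
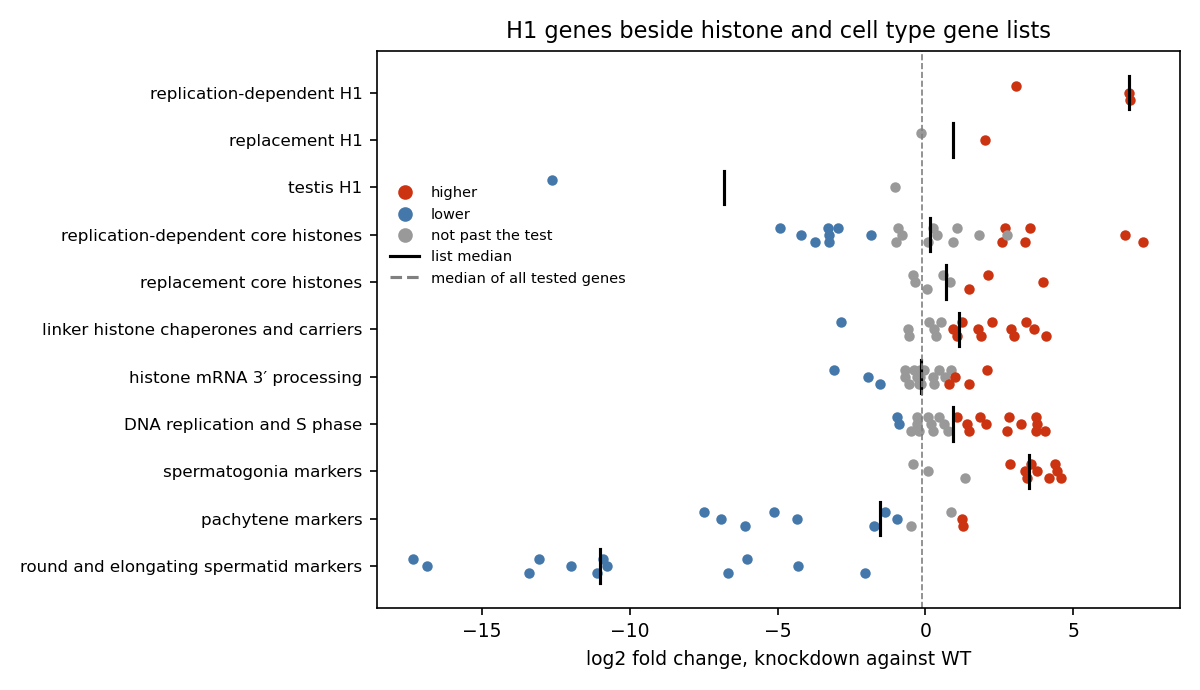
Log2 fold change (horizontal axis, knockdown against WT) of each tested gene of 11 lists, red for higher, blue for lower and grey for not past the test, with the list median as a black bar and the median of all tested genes dashed at -0.12. H1f1, H1f2 and H1f5 lie on the right, H1f7 lies among the spermatid markers on the left, and the core histones spread to both sides. Genes without a count in a group are placed by a fitted value that depends on the prior count.

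Markers of other cell types were read beside the H1 genes. Of all tested genes 27.4% were called higher and 33.5% lower. The 12 markers of round and elongating spermatids, the cells in which H1f7 and H1f9 are known to be made, all fell, with a summed level of 4181 and 2086 CPM in WT and of 26 and 18.1 CPM in the knockdown. Prm2 and Smcp had no count in the knockdown. Odf1, Akap4, Tnp1, Tnp2, Prm1 and Acrv1 had 0 to 7 counts in each knockdown library. Like H1f7 and H1f9, these markers passed the low-count filter only through the WT libraries, so they could enter the test only as lower. All 12 were higher in WT replicate 1 than in WT replicate 2, as were H1f7 and H1f9. Markers of spermatogonia summed to 182 and 169 CPM in WT and 884 and 764 CPM in the knockdown, with 9 of 12 higher and none lower. Sertoli cell markers summed to 188 and 462 CPM in WT and 3926 and 4701 CPM in the knockdown, with 12 of 12 higher, and Leydig cell markers to 114 and 771 CPM and 1361 and 2719 CPM, with 8 of 8 higher. The Leydig count is less firm: 5 without WT replicate 1, 1 without knockdown replicate 2, 5 with DESeq2 size factors and 3 with the DESeq2 Wald test.

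The rarer somatic cells followed the same direction. Macrophage markers summed to 12.3 and 19.7 CPM in WT and 186 and 112 CPM in the knockdown, with 7 of 8 higher. Those of peritubular myoid cells summed to 7.77 and 22.1 CPM and to 156 and 140 CPM, with 5 of 6 higher. Endothelial markers summed to 13.2 and 21.2 CPM and to 23.3 and 51.7 CPM, with 3 of 7 higher, none of them without WT replicate 1 and 1 without knockdown replicate 2. None of the markers of spermatogonia, Sertoli, Leydig or endothelial cells was at 0 in any library, whereas Cd163 was at 0 in WT replicate 1 and Tagln in WT replicate 2 and knockdown replicate 2. H1f0 and H1f2 were higher in WT replicate 2 than in WT replicate 1. WT replicate 1 was the higher for only 1 of 12 Sertoli, 0 of 8 Leydig and 1 of 7 endothelial markers. The same was true of 1 of 6 tested myoid, 2 of 8 macrophage and 5 of 12 spermatogonia markers. By contrast, it was the higher for 9 of 12 pachytene and 12 of 12 spermatid markers. Over all tested genes the median log2 ratio of WT replicate 1 to 2 was 0.0344. In knockdown replicate 1, where H1f1 was high, 7 of 8 macrophage, 8 of 12 spermatogonia and 4 of 6 tested myoid markers were above replicate 2, against 1 of 12 Sertoli, 0 of 8 Leydig and 0 of 7 endothelial markers. Replicate 1 was also above replicate 2 for 10 of 12 pachytene and 7 of 12 spermatid markers. The same held for 15 of 18 carrier genes and 18 of 24 S phase genes. Over all tested genes the median log2 ratio of knockdown replicate 1 to 2 was 0. The part of any of these cell types in the H1 values was not tested.

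The genes nearest to each H1 gene in profile were found by the Euclidean distance of log2(CPM + 0.5) over the 4 libraries after each gene's mean was removed. The 0.5 CPM added shrinks the profile of low genes, so the match still depends on level. Nearest to H1f1 were Cxcl2 and Ccl7, both chemokines, and Cd83, an immune surface protein, at distances of 0.92, 1.36 and 1.33. Cxcl2 had 0.119 and 0.0694 CPM in WT and 11.8 and 0.775 CPM in the knockdown. Nearest to H1f2 were Bst2, an interferon-induced membrane protein, and the basement membrane genes Col4a1 and Lamb1, at distances of 0.211 to 0.238. Bst2 had 0.476 and 3.75 CPM in WT and 18.2 and 15.3 CPM in the knockdown. Nearest to H1f7 were Allc, Rnf151 and Speer2, at 0.124 to 0.215, and each had no more than 0.0484 CPM in a knockdown library. H1f0 lay nearest to Ddx19a, Osbpl3 and Flii, and H1f10 nearest to Frg1, Rpl26 and Psma6, a gene of the proteasome. H1f6 lay nearest to C2cd4b, Srp54b and Ubb-ps, and H1f5 to Rmdn3, Mrps2 and Ppif, where the pseudocount flattens a gene that is close to 0. These are descriptions over 4 libraries and imply no shared control.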

How the data were processed

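The authors deposited raw gene counts of polyadenylated RNA, 1 column for each library, matched to the labels by name. The submitters' processing notes name build mm39, featureCounts 1.5.3, HISAT2 2.2.1, Trim Galore 0.6.10 and DESeq2 1.46.0. Annotation, strand setting and the handling of multi-mapping reads are not stated there. In R 4.3.3 with edgeR 4.0.16, filterByExpr kept 23594 of 36809 genes with a count, TMM scaled the libraries, and the quasi-likelihood test compared knockdown with WT, adjusted by Benjamini-Hochberg over all tested genes at 0.05. Depth per library was 33287428 to 42479164 counts. SEs are the log2 fold change over the square root of F. The test was tested on counts simulated for this comparison (23426 genes, 200 changed, 10 draws): the calls recovered 1.9% of 2-fold and 34.8% of 4-fold changes, and 5.9% of calls were false. In the data 60.9% of tested genes were called, far more than were changed in the simulation, so these rates need not hold for the data. Exact 95% intervals of ratios and the floor of 3 counts cover counting error only. Transcript models were GENCODE M21, and promoters RefSeq (GRCm38.p6), matched by symbol or synonym for 9 of 9 members. Alternatives were DESeq2 1.42.0 size factors or Wald test, library totals, a minimum mean of 1 CPM, no filter at all, a replicate block, leaving out each library, and a minimum log2 fold change of 1. Coding length was added after the data were seen. The members and lists were chosen with earlier results of these data known. Of 225 list entries, 222 matched by symbol. Named genes were the H1 genes, Hsf5, up to 3 members per list with the smallest p, exceptions of 5 or fewer, and the 3 nearest profiles per member; the other carriers, Slbp and Npat were named after their values were seen.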

Additional observations from a re-analysis of the deposited data

How the results depend on the processing

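With 1 library left out, the H1 genes called higher numbered 2 to 4, with 2 without knockdown replicate 1, where H1f1 did not pass and H1f5 was not tested. In those fits the log2 fold change was 2.64 to 7.90 for H1f1, 6.95 to 7.04 for H1f5, -0.61 to 0.24 for H1f10 and -1.995 to 0.0784 for H1f6. H1f10 was 0.26 with library totals only. Of 68 member fold changes recomputed, 62 kept their direction and side of the threshold, 2 lost the call and 4 turned sign, the last all of H1f10 and H1f6. For H1f1, H1f5, H1f6 and H1f10 the cause was not tested. The replicate numbers are shared by the groups, but no label says what they mark. With the replicate block 7016 genes were higher and 8351 lower, against 6467 and 7902, and the block changed no H1 call (4 higher and 1 lower); falls among the carriers numbered 2 against 1. The deviations of equally numbered libraries had r = 0.321 across 23594 genes, which are not independent. Shares of the H1 signal moved by more than the replicate SD for 19 of 36 values. With undivided counts the WT shares were 0.0298% (H1f1), 0.0139% (H1f3), 0.0298% (H1f4) and 64% (H1f10), and the knockdown shares were 0.0487% (H1f3), 0.148% (H1f5), 25.1% (H1f0) and 64.2% (H1f10). With coding length the WT shares were 0.0313% (H1f1), 0.0138% (H1f3), 0.0304% (H1f4), 6.39% (H1f0), 75.8% (H1f10) and 16.3% (H1f7). The knockdown shares were then 0.0423% (H1f3), 0.127% (H1f5), 24.8% (H1f0), 65.5% (H1f10) and 0.298% (H1f6). Counts of 0 to 40 per library limit H1f3, H1f4 and H1f5 and the WT values of H1f1.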

Other observations

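Among the 10 tested genes with the highest ratio of knockdown replicate 1 to replicate 2 were 3 histone genes known from the testis or its germ cells (H1f1, H3f4 and H2ac1) and 4 immune genes (Cxcl2, Ccl7, Tnf and Cd83). Tnf, a cytokine, had 0.0596 and 0.139 CPM in WT and 5.63 and 0.508 CPM in the knockdown. Rn7sk was seventh in that order, with a log2 ratio of 2.8. These genes were picked by their values and carry no test.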
